A study of Mus musculus with 4 samples.

Results

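T cells with 1 alpha chain, 1 beta chain and no second cell of their clonotype made up 75 of the 234 cells with a productive T-cell receptor chain (32.1%, exact Clopper-Pearson 95% interval 26.1 to 38.4). They were chosen from the receptor tables themselves: a member is a cell barcode with exactly 1 productive TRA (alpha) contig and exactly 1 productive TRB (beta) contig whose deposited clonotype number is held by that barcode alone. The control library gave 17 of 74 cells (23.0%, 13.99 to 34.2) and the ATRA library 58 of 160 (36.3%, 28.8 to 44.2).

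The cells came from C57BL6 mice injected at 6 weeks of age in the striatum, a deep part of the forebrain, with 50000 cells of a glioma neurosphere culture, in a study of retinoic acid signaling in gliomas with mutant IDH. One group was then given all-trans retinoic acid (ATRA, a hormone-like derivative of vitamin A) in doses of 10 mg/kg every other day into the abdominal cavity, and the other group its control, until signs of disease of the nervous system appeared. Tumors were taken with adjoining brain, broken up with Accutase and sorted by CD45, which marks leukocytes, and libraries were made with the 5-prime v1 kit of 10x Genomics. Each treatment is 1 receptor library, so there is no replicate and no test between treatments, and how many mice a library pooled is not stated in these sources. Intervals cover counting error only. The receptor tables hold no other genes, so the cells were identified by their receptor chains and not by markers, and the matching gene expression samples were not analysed here.

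An alpha-beta T-cell receptor is assembled in the thymus: the beta chain gene joins a V, a D and a J segment, and the alpha chain gene a V and a J segment. Bases are trimmed and added at each joint, and the loop that spans the joint, the CDR3, contacts the peptide presented by an MHC molecule. The alpha locus can rearrange again, taking V segments farther upstream and J segments farther downstream, so the positions of V and J along that locus carry a trace of this order. An unexpanded receptor is one that was sampled in a single cell, which depends on how many cells were read as well as on division.

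The receptors below show 1 pair from each library, as CDR3 nucleotides from 5′ to 3′. Each is the first listed member with both CDR3s at the median length of 14 residues. It also had no chain in another barcode of its library and had middle bases in both chains. The pairs are not typical in every measure: the beta chain of ATRA cell 7 is printed again below for its low net charge. Capitals mark the middle bases. These are the bases outside the longest 5′ stretch found in another receptor of the V family with a different J segment, and outside the longest 3′ stretch found in another receptor of the J segment with a different V family. Receptors at most 1 residue apart were not used for this comparison.
Control cell 7, TRAV7-3 with TRAJ30: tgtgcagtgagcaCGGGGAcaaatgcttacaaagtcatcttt
Control cell 7, TRBV5 with TRBJ2-1: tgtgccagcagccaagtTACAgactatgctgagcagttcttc
ATRA cell 7, TRAV6D-5 with TRAJ42: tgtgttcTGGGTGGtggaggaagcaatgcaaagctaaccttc
ATRA cell 7, TRBV12-2+TRBV13-2 with TRBJ2-5: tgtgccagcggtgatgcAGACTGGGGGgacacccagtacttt
The capitals cover 6 and 4 bases in the control cell and 7 and 10 bases in the ATRA cell. Middle bases can include bases of the V segment itself. This can occur where a segment differs from its family, or where its like receptors use the same J segment.

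Among the cells of single-cell clonotypes, 58 in the control and 109 in the ATRA library, the members were those with a complete and simple receptor. The others held a TRB without a TRA (35 control and 27 ATRA cells), a TRA without a TRB (2 and 8) or both loci with an extra chain (4 and 16). Just outside the rule lay 28 cells with 1 TRA and 1 TRB in clonotypes of 2 cells, 6 in the control and 22 in the ATRA library. No barcode was shared by the libraries (0 shared barcodes).

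Few molecules stood behind each chain. A control member had a median of 2 UMIs (unique molecular identifiers, 1 per captured RNA molecule) on its TRA and 3 on its TRB, against 3 and 6.5 in an ATRA member. The TRA rested on a single UMI in 6 of 17 control and 11 of 58 ATRA members. In 53 of 75 cells the TRB had more UMIs than the TRA, and in 15 it had fewer. Both chains had at least 2 UMIs in 8 of 17 control and 45 of 58 ATRA members. A chain that gave no UMI is not counted, so a cell's class rests on what was read; the part of depth, which was lower in the control library, in the numbers of members was not tested.

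The single-cell label was then checked against the chains of all other barcodes. In 19 of 75 members (25.3%, 16.0 to 36.7) at least 1 chain, matched on V segment, J segment and CDR3 nucleotides, was also in another barcode of the library. These were 5 of 17 control and 14 of 58 ATRA members. The TRA alone recurred in 6 members, the TRB alone in 6 and both chains in 7, all 7 in the ATRA library. In 55 of 75 members neither chain was found anywhere else in either library. For 5 ATRA members (cells 3, 8, 14, 45 and 53) another barcode held the same TRA and TRB together with at least 1 further chain, which gave it a separate clonotype number. The unexpanded set therefore holds some receptors that were read in more than 1 barcode.

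A single TRAV12-2 with TRAJ26 alpha chain was carried by 3 of the 17 control members, each time with a different beta chain. The sequences show this directly; capitals again mark the middle bases.
Control cells 6, 8 and 11, shared TRA: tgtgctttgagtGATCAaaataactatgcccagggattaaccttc
Control cell 6, TRBV19 with TRBJ2-4: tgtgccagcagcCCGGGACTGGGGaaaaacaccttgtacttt
Control cell 8, TRBV20 with TRBJ1-1: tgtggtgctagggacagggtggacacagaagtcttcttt
Control cell 11, TRBV13-1 with TRBJ2-3: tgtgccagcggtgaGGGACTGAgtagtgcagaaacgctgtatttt
The alpha chain had 1 UMI in cell 6, 4 in cell 8 and 3 in cell 11, and the beta chains had 2, 8 and 1. The same alpha chain was in 2 barcodes of the ATRA library, and the beta chain of cell 8 was also in 2 barcodes there. Cells 6 and 11 had beta chains that the ATRA library did not hold. Whether RNA of 1 cell reached other barcodes was not tested.

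The reverse case, 1 beta chain with several alpha chains, was seen in ATRA cells 8 and 18. The TRBV13-1 with TRBJ2-7 chain of cells 8 and 18, at 11 and 12 UMIs, was paired with TRAV5D-4 and TRAJ37 in cell 8. In cell 18 it was paired with TRAV21-DV12 and TRAJ53.
ATRA cells 8 and 18, shared TRB: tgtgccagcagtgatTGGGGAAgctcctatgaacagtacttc
ATRA cell 8, TRA: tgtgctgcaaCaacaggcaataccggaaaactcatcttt
ATRA cell 18, TRA: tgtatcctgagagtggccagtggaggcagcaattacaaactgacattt
The alpha chain of cell 18 is printed without capitals because its middle bases could not be set.

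Among the 2775 pairs of members, 9 had the same TRA amino-acid CDR3, 5 the same TRB and 1 both. The 75 cells held 70 distinct TRA and 71 distinct TRB amino-acid CDR3s, written by 72 and 74 distinct nucleotide sequences. In 4 pairs, all in the ATRA library, each chain was the same or 1 residue apart. One of these was cells 40 and 51, whose alpha chains (TRAV9N-4 with TRAJ34) differed at 1 base and whose beta chains (TRBV13-3 in cell 40 and TRBV13-1 in cell 51, with TRBJ1-1) also differed at 1 base and spelled the same residues. Capitals mark the base that differs.
ATRA cell 40, TRA: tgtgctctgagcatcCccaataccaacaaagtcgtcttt
ATRA cell 51, TRA: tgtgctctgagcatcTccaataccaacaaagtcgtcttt
ATRA cell 40, TRB: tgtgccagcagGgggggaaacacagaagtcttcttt
ATRA cell 51, TRB: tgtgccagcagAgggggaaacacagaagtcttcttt
Cell 40 had 1 UMI on each chain, and cell 51 had 6 and 3. The beta chain of cell 40 was also in 2 other barcodes of the library, there with a different alpha chain, while its alpha chain rested on the 1 UMI alone.

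The other near-identical receptors belonged to a TRBJ2-1 group of 5 ATRA members, which used TRBV26 (cells 3, 22 and 24) or TRBV14 (cells 20 and 46). Their TRB CDR3s differed at 5 nucleotide positions, marked by capitals, and cells 3, 20 and 24 paired them with TRAV21-DV12 and TRAJ53. Cell 46 paired its beta chain with TRAV21-DV12 and TRAJ56.
ATRA cell 3, TRBV26: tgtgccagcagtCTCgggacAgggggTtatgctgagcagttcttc
ATRA cell 20, TRBV14: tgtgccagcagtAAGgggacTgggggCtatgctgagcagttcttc
ATRA cell 22, TRBV26: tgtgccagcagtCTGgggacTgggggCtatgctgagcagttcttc
ATRA cell 24, TRBV26: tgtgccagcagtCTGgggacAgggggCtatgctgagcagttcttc
ATRA cell 46, TRBV14: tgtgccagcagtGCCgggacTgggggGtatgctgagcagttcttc
All 5 shared the bases gggac in the middle and the J end, while the capital triplet differed in spelling, in part. Cells 3, 22 and 24 spelled the same residues. The alpha chain of cells 20 and 24 was also read in barcodes of expanded clonotypes, beside other beta chains. The beta chain of cell 22 was also read in barcodes of an expanded clonotype, beside another alpha chain. These cells are therefore not independent of the expanded receptors. The beta chain rested on 1 UMI in cell 20 and 2 in cell 46, against 7, 12 and 8 in cells 3, 22 and 24.

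Segment use was broad. The 75 members used 40 TRAV, 34 TRAJ, 19 TRBV and 12 TRBJ segments, and 21 of the 40 TRAV and 12 of the 34 TRAJ segments were used by 1 cell each. The TRAV6 family was the most used, in 15 cells, all from the ATRA library (25.9%, 15.3 to 39.0). It was in 0 of 17 control members, where the exact interval reaches 19.5% and a limit of 3 counts gives 17.6%. Those 15 cells were spread over 9 TRAV6 segments, 12 TRAJ and 11 TRBV segments. TRAV7 was used by 11 cells, and TRAV9 and TRAV12 by 9 each. In the control library TRAV7, TRAV12 and TRAV13 led with 3 cells each.

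Single alpha segments were rarer. TRAV21-DV12 (chromosome 14, 53876016 to 53876752 in GRCm38.p6) was in 6 members, 5 of them ATRA, and TRAV12-2 (chromosome 14, 53616397 to 53616914) in 5. In the ATRA library TRAV6-5 and TRAV9-4 followed with 4 cells each. TRAV7-3 and TRAV12-2 were each in 3 of 17 control cells. Among TRAJ segments, TRAJ34 and TRAJ57 were each used by 5 cells, all 5 TRAJ34 cells being in the ATRA library. TRAJ53 was used by 4 ATRA members and TRAJ26 by the 3 control members with the shared alpha chain.

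On the beta side TRBV29 was used by 10 members (13.3%, 6.58 to 23.2), 2 control and 8 ATRA. TRBV29 lies at chromosome 6, 41271403 to 41271881, and the RefSeq table lists it as a V segment pseudogene, as it does TRBV10, used by 3 ATRA members. TRBV13-1 was used by 9 members and the fused name TRBV12-2+TRBV13-2 by 9. TRBV1 and the fused name were each in 3 control cells. All 6 members with TRBV1 had a second cysteine inside the CDR3, and no other member had one.

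TRBJ2-1 (chromosome 6, 41542754 to 41542803) was the leading beta J segment, in 19 members (25.3%, 16.0 to 36.7). Its share was 2 of 17 in the control library (11.8%, 1.46 to 36.4) and 17 of 58 in the ATRA library (29.3%, 18.1 to 42.7), and these intervals overlapped. TRBJ2-7 followed with 11 cells and TRBJ1-1 with 9. The downstream TRBJ2 cluster as a whole was used by 47 of 75 members (62.7%, 50.7 to 73.6), 10 of 17 control and 37 of 58 ATRA.

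Few segment pairs were repeated. Members were chosen from single-cell clonotypes, which leaves out repeated receptors, and the segments used allow 760 TRAV-TRBV pairs for 75 cells. The low number of repeats is therefore not read as a trait of the members. The members formed 72 distinct TRAV-TRBV pairs, of which 69 were in 1 cell and 3 in 2 cells, and none was in 3. The 3 repeated pairs were TRAV21-DV12 with TRBV14, TRAV21-DV12 with TRBV26, and TRAV7-4 with TRBV29, all in the ATRA library. By TRAV family, TRAV7 with TRBV29 was the only pair in more than 2 cells, with 4 cells where the product of the shares gives 1.47.

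Within the alpha chain 68 distinct TRAV-TRAJ pairs were found in 75 cells. Only TRAV21-DV12 with TRAJ53, in 4 cells, and TRAV12-2 with TRAJ26, in 3 cells that share 1 chain, reached 3 cells. Within the beta chain 59 distinct TRBV-TRBJ pairs were found. TRBV29 with TRBJ2-1 was in 4 cells, where the product of the shares gives 2.53, TRBV26 with TRBJ2-1 in 3 (1.52) and TRBV5 with TRBJ2-7 in 3 (0.733). Across chains the J segments formed 62 distinct pairs. TRAJ34 with TRBJ1-1, TRAJ53 with TRBJ2-1 and TRAJ57 with TRBJ2-7 were in 3 cells each, against products of 0.600, 1.01 and 0.733. These products are a description, since members that share a chain are not independent.

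**Figure D1:**
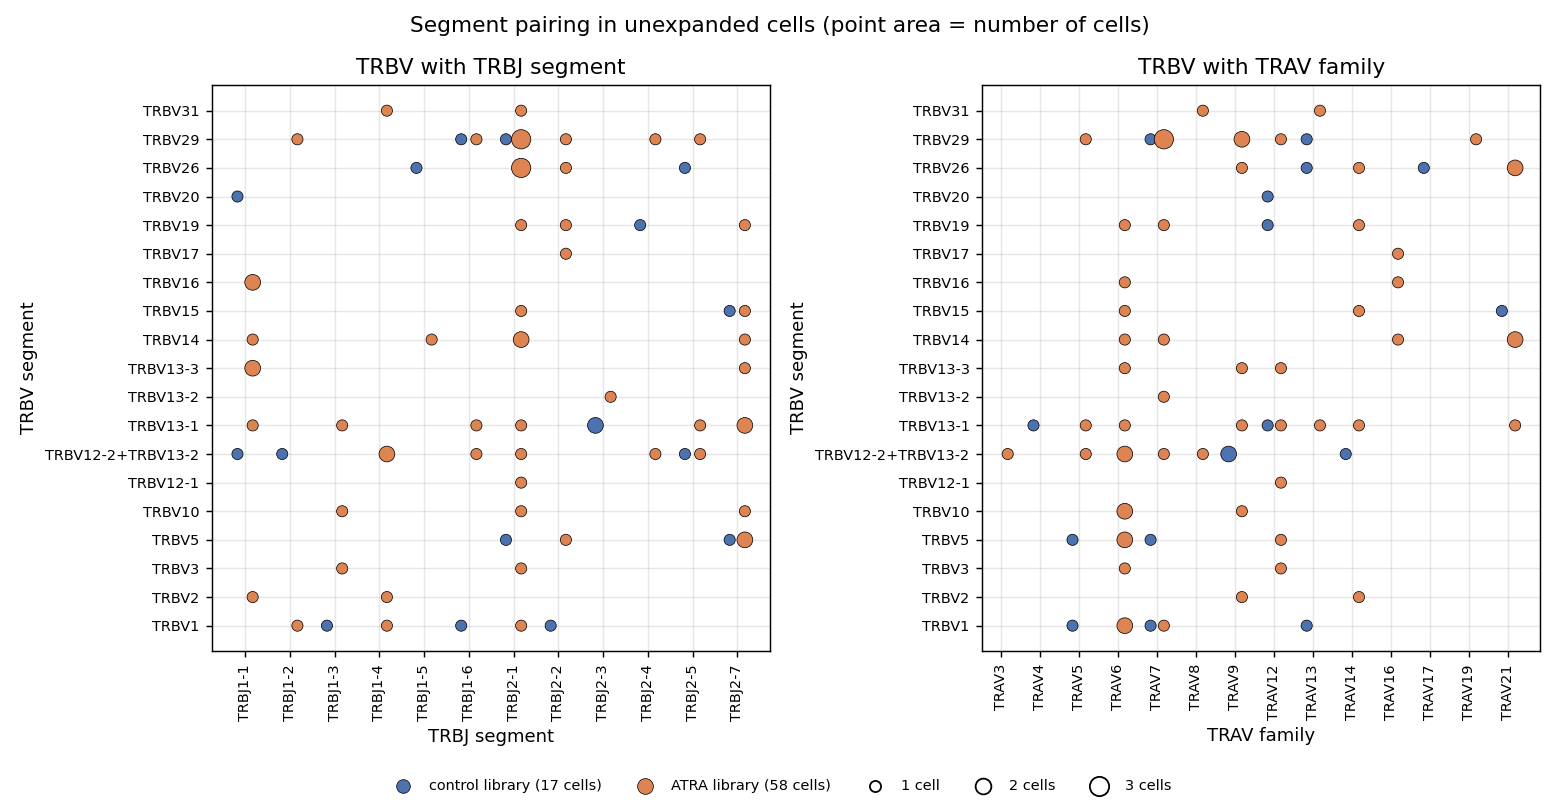
TRBV segment (vertical axis) against TRBJ segment (left) and TRAV family (right) in the 75 unexpanded cells. Point area is the number of cells, blue is the control library (17 cells) and orange the ATRA library (58 cells); most points stand for 1 cell, and the TRAV6 column holds orange points only.

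The CDR3s of the 2 chains were of similar length. The alpha CDR3 had 14.1 ± 1.31 residues (mean ± SD over 75 cells, range 10 to 17) and the beta CDR3 13.8 ± 1.18 (range 11 to 16). Residues were counted from the conserved cysteine to the closing residue. That residue was phenylalanine in all but the 3 TRAJ44 alpha chains, which closed with leucine. In the control library the means were 13.8 ± 1.39 and 13.6 ± 0.931, and in the ATRA library 14.2 ± 1.27 and 13.8 ± 1.24, differences well within the spread between cells. Lengths of 13 to 15 residues covered 57 of 75 alpha and 63 of 75 beta chains.

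The shortest and the longest CDR3s are given next, with capitals on the middle bases where these could be set.
Shortest TRA, control cell 5, TRAV13-2 with TRAJ43: tgtgctattaacaacaatgccccacgattt
Longest TRA, ATRA cell 13, TRAV7N-6 with TRAJ4: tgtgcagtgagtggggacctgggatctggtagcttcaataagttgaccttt
Shortest TRB (1 of 4 tied), ATRA cell 6, TRBV13-3 with TRBJ2-7: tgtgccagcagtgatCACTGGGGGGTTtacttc
Longest TRB, ATRA cell 45, TRBV3 with TRBJ2-1: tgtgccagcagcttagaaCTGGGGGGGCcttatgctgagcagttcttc
The shortest alpha chain had 0 middle bases, so its whole CDR3 was covered by stretches shared with other receptors. The 4 beta chains of 11 residues had 12, 6, 2 and 7 middle bases, 12 being those of the printed chain.

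Within cells the lengths of both chains were weakly related. Pearson's r was 0.20 and Spearman's rho 0.27 over 75 cells, with r 0.08 in the 17 control and 0.23 in the 58 ATRA members. The points share libraries and, in part, chains: r was 0.08 over the 56 members with no recurring chain. Beta chains averaged 13.5 residues beside alpha chains of 13 or fewer (23 cells), 13.6 beside alpha chains of 14 (23 cells) and 14.2 beside alpha chains of 15 or more (29 cells). Of those 29 cells 14 had a beta CDR3 of at least 15 residues. The alpha chain was the longer in 33 cells and the beta chain in 19, and they were equal in 23. Summed over both chains, the lengths had an SD of 1.93 residues, against 1.76 were they unrelated.

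**Figure D2:**
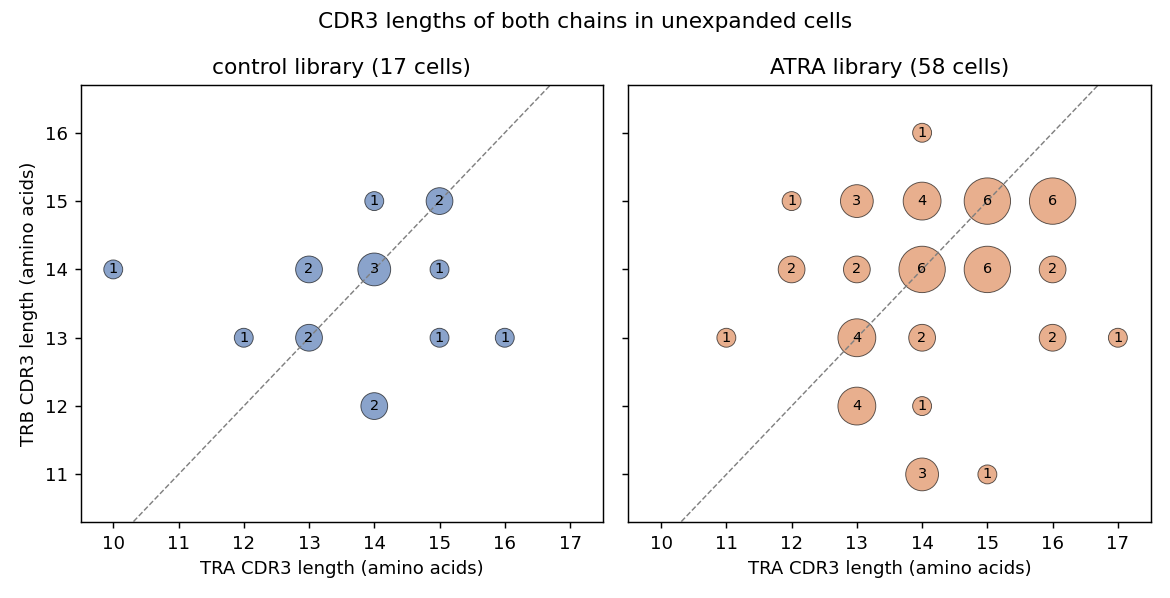
Alpha against beta CDR3 length in amino acids for each unexpanded cell, control library left and ATRA library right. Point area and the printed number give the cells at that pair of lengths and the dashed line marks equal lengths; in the ATRA panel 6 cells each stand at alpha lengths 15 and 16 with a beta length of 15.

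The J-shared part was the longer in alpha chains. The stretch shared with other receptors of the J segment had a mean of 27.2 ± 3.01 bases in alpha chains (65 cells) and 19.8 ± 3.93 in beta chains (75 cells), with the CDR3 lengths themselves close. Lengths by J segment at the alpha locus include TRAJ27, with 11 to 14 residues in 3 cells, and TRAJ32, with 16 residues in all 3 of its cells. At the beta locus TRBJ1-1 chains averaged 12.9 residues (9 cells) and TRBJ2-1 chains 14.4 (19 cells).

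The middle bases were fewer in alpha than in beta chains. They numbered 2.95 ± 2.57 in the 63 alpha chains for which both stretches could be found (median 2, range 0 to 11) and 7.04 ± 4.22 in the 75 beta chains (median 7, range 0 to 17). The beta chain had more in 47 of the 63 cells and the alpha chain in 10. Beta middle bases can include what remains of the D segment, which the alpha chain lacks. Bases of the D segment were not identified, so a shared stretch may also hold some of them. G made up 49.2% of the 528 beta and 25.8% of the 186 alpha middle bases. The measure depends on which receptors were sampled: where 2 other receptors had to share a stretch, the means were 5.17 (46 cells) and 9.04 (72 cells). A value of 0 says that the shared stretches met or overlapped.
Most middle bases, TRA, ATRA cell 37, TRAV6D-3 with TRAJ48: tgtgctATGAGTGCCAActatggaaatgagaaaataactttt
Fewest middle bases, TRA (1 of 14 tied at 0), control cell 9, TRAV14D-1 with TRAJ37: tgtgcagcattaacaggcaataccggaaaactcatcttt
Most middle bases, TRB (1 of 2 tied), ATRA cell 35, TRBV12-2+TRBV13-2 with TRBJ2-1: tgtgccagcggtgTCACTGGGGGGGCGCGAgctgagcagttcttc
Fewest middle bases, TRB (1 of 7 tied at 0), ATRA cell 52, TRBV14 with TRBJ2-7: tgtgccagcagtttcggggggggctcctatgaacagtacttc
The capitals cover 11 bases in ATRA cell 37 and 17 in ATRA cell 35. TRAV6D-3 was used by 1 member only, so the capitals of cell 37 may include bases of that V segment.

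The chains carried opposite charge on average. Counting lysine and arginine as +1 and aspartate and glutamate as -1, the alpha CDR3 had a mean net charge of 0.76 ± 0.867 and the beta CDR3 -0.72 ± 1.07 (SD over 75 cells). Alpha CDR3s were positive in 54 cells, neutral in 12 and negative in 9, while beta CDR3s were positive in 9, neutral in 18 and negative in 48. In 56 of 75 cells (74.7%, 63.3 to 84.0) the alpha charge was above the beta charge and in 7 it was below.

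The charges of the chains were not matched cell by cell. They were of opposite sign in 39 cells and of the same sign in 10, with r -0.07 over the 75 cells. The receptor as a whole was close to neutral on average, at 0.04 ± 1.33, with 24 positive, 26 neutral and 25 negative receptors. By library the alpha means were 0.65 in the control and 0.79 in the ATRA library, and the beta means -0.94 and -0.66. A neutral beta CDR3 was found in 0 of 17 control members, which allows up to 17.6%, and in 18 of 58 ATRA members (31.0%, 19.5 to 44.5). These 18 came from 1 library and the comparison has no test.

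**Figure D3:**
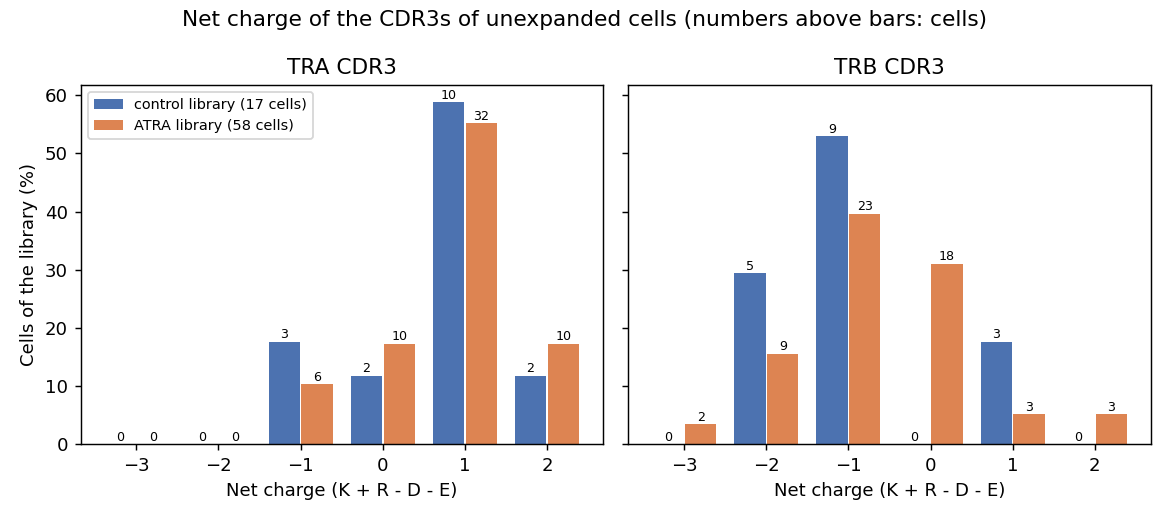
Share of the cells of each library (vertical axis, percent, from 0) at each net charge of the alpha CDR3 (left) and the beta CDR3 (right). Blue bars are the control library, orange bars the ATRA library, and numbers above bars are cells; alpha chains peak at +1 and beta chains at -1 in both libraries.

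Charged residues of each chain's prevailing sign fell in J-shared stretches more often than those of the opposite sign. In alpha chains 56 of 72 positive residues (77.8%) fell there against 8 of 28 negative ones (28.6%). In beta chains 58 of 91 negative residues (63.7%) fell there against 7 of 37 positive ones (18.9%). These counts are over the 63 alpha and 75 beta chains with both stretches found. They are to be read against the length of the stretch. It averaged 27.2 bases in alpha CDR3s of 14.1 residues on average, and 19.8 bases in beta CDR3s of 13.8 residues. The share of all residues in the stretch was not counted, and residues where both stretches overlapped were counted as J-shared. A lysine was in the middle part of the CDR3, without its first 3 and last 3 residues, in 58 of 75 alpha but 5 of 75 beta chains. Arginine did not differ in this way, with 24 alpha and 26 beta chains. A glutamate was there in 52 beta but 16 alpha chains, and an aspartate in 30 beta and 14 alpha chains. By segment, all 5 TRAJ34 chains had a charge of 1, whereas all 3 TRAJ45 chains and the shared TRAJ26 chain stood at -1. All 6 TRAV21-DV12 chains had a charge of 2, of which 4, with TRAJ53, spell 1 amino-acid CDR3, and the others used TRAJ50 and TRAJ56. The beta means were -1.27 for TRBJ2-7 (11 cells), -0.89 for TRBJ2-1 (19 cells) and 0 for TRBJ2-2 (6 cells). TRBV29 chains averaged 0 (10 cells).

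The chains at the ends of the charge range show which codons carry it; capitals mark the codons of charged residues.
Lowest TRA charge (-1, 1 of 9 tied), ATRA cell 27, TRAV6-6 with TRAJ22: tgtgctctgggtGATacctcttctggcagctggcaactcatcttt
Highest TRA charge (2, 1 of 12 tied), ATRA cell 23, TRAV5-4 with TRAJ37: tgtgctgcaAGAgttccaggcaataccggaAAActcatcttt
Lowest TRB charge (-3, 1 of 2 tied), ATRA cell 7, TRBV12-2+TRBV13-2 with TRBJ2-5: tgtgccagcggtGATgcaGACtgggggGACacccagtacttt
Highest TRB charge (2, 1 of 3 tied), ATRA cell 58, TRBV29 with TRBJ1-6: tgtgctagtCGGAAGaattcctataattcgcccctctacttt
Both positive codons of the beta chain of cell 58 stand side by side after the V end, and the negative codons of cell 7 are spread along the loop.

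The middle parts of both CDR3s were hydrophilic, while over the whole CDR3 the alpha mean was 0.28 and the beta mean -0.14. On the Kyte-Doolittle scale, where values above 0 are hydrophobic, the mean over the middle part was -1.41 ± 0.672 in alpha and -1.21 ± 0.814 in beta chains (SD, 75 cells). It was above 0 in 2 alpha and 3 beta chains. The library means differed by less than the spread between cells, at -1.53 in control and -1.37 in ATRA alpha chains and at -1.26 and -1.20 in beta chains. The alpha middle part was the more hydrophobic in 33 of 75 cells, and the values of both chains had r 0.13 over 75 cells.

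Glycine, serine and asparagine were the leading residues of the alpha middle parts, at 19.2%, 15.9% and 14.4% of 610 residues, and glycine and serine those of the beta middle parts, at 19.5% and 14.4% of 584. Asparagine stood at 6.68% in beta chains. Beta chains with a TRBJ1 segment averaged -1.67 (28 cells) and those with a TRBJ2 segment -0.94 (47 cells). TRBJ1-4 was the lowest segment, at -2.48 (5 cells), and TRBJ2-1 the highest, at -0.78 (19 cells), among beta J segments in at least 3 cells. In beta chains hydrophobicity was lower at higher charge, with r -0.34 over 75 cells, while alpha chains gave r 0.17. Charged residues of both signs have low values on the scale and enter both measures. The cause of the difference between chains was not tested.
Least hydrophobic TRA, ATRA cell 35, TRAV8-1 with TRAJ31: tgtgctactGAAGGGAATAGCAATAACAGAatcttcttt
Most hydrophobic TRA, ATRA cell 9, TRAV5D-4 with TRAJ22: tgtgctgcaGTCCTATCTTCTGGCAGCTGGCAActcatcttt
Least hydrophobic TRB, ATRA cell 32, TRBV1 with TRBJ1-4: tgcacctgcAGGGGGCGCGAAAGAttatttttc
Most hydrophobic TRB, ATRA cell 49, TRBV19 with TRBJ2-7: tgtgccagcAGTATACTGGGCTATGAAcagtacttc
Here capitals mark the middle part, whose mean was -2.81 and 0.10 in these alpha chains and -3.48 and 0.38 in these beta chains.

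**Figure D4:**
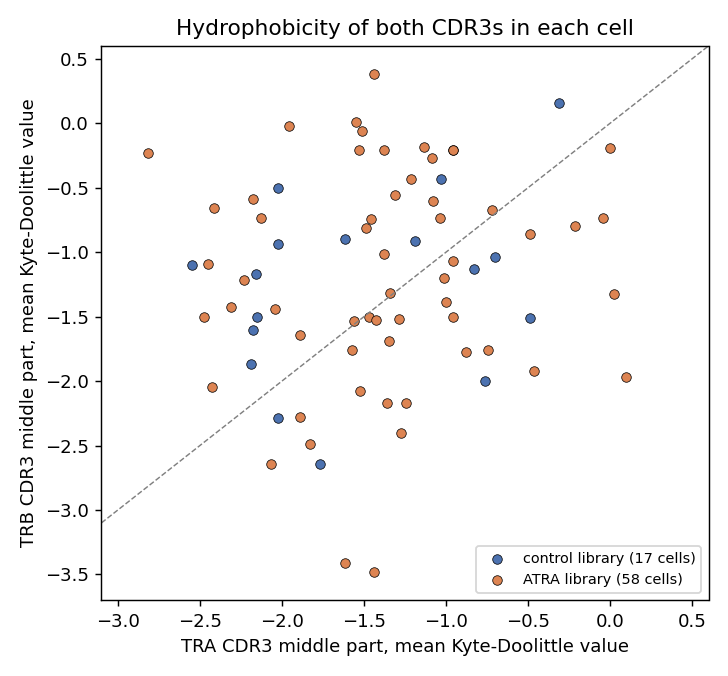
Mean Kyte-Doolittle value of the CDR3 middle part, alpha chain (horizontal) against beta chain (vertical), 1 point per unexpanded cell, blue for control and orange for ATRA. The dashed line marks equal values; nearly all points lie below 0 on both axes, with 33 of 75 cells to the right of the line.

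Alpha chains drew mainly on V segments near the J segments. The 130 TRAV segments of the RefSeq annotation were divided by order into 3 blocks, and 47 of 75 members used the 44 segments from TRAV6-4 to TRAV23, which lie nearest to the TRAJ segments. The middle block was used by 16 members and the block farthest upstream by 12. Among the 60 TRAJ segments, the 20 from TRAJ61 to TRAJ42, nearest to the V segments, were used by 32 members, the next 20 by 31, and the 20 from TRAJ21 to TRAJ1 by 12. Of the 47 cells with a V segment of the nearest block 24 had a J segment of the nearest block and 4 one of the farthest. Of the 28 cells with another V segment 8 had a J segment of the nearest block and 8 one of the farthest.

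Position along the locus was then compared within chains, as the distance of the V segment downstream of TRAV1 against the distance of the J segment downstream of TRAJ61. In the ATRA library V segments farther downstream went with J segments farther upstream (r -0.39 and rho -0.44 over 58 cells). The control library gave r 0.24 and rho 0.10 over 17 cells, and both libraries together r -0.27 and rho -0.32 over 75. Within the ATRA library r was -0.30 without the TRAV21-DV12 with TRAJ53 chains (54 cells), -0.32 over the 45 cells with at least 2 UMIs on each chain and -0.34 over the 44 cells with no recurring chain. It was -0.16 over the 33 ATRA cells with at least 3 UMIs on each chain and -0.06 over the 17 with no further contig. Over both libraries these settings gave -0.14 (36 cells) and 0.0032 (24 cells), so the relation was not seen where no further contig was present. The median TRAJ distance was 20.3 kb for ATRA cells of the nearest V block, 37.3 kb for the middle block and 32.9 kb for the upstream block. The V and J segments of a member were a median of 677 kb apart, from 283 to 1545 kb.

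A limit of position is that the mouse TRAV cluster holds repeated blocks with near-identical segments, whose names carry D or N. Members used a D copy in 12 cells, an N copy in 11 and a segment with neither letter in 52. How often a chain was named for the wrong copy was not tested. Only 10 members used a TRAV segment with no near copy, and their r was -0.78. Of these 10 cells 6 used TRAV21-DV12, 4 of them with the repeated TRAJ53 chain, and only the 2 TRAV6-2 cells lay far upstream, so this value rests on those 2 cells and 1 repeated chain.

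**Figure D5:**
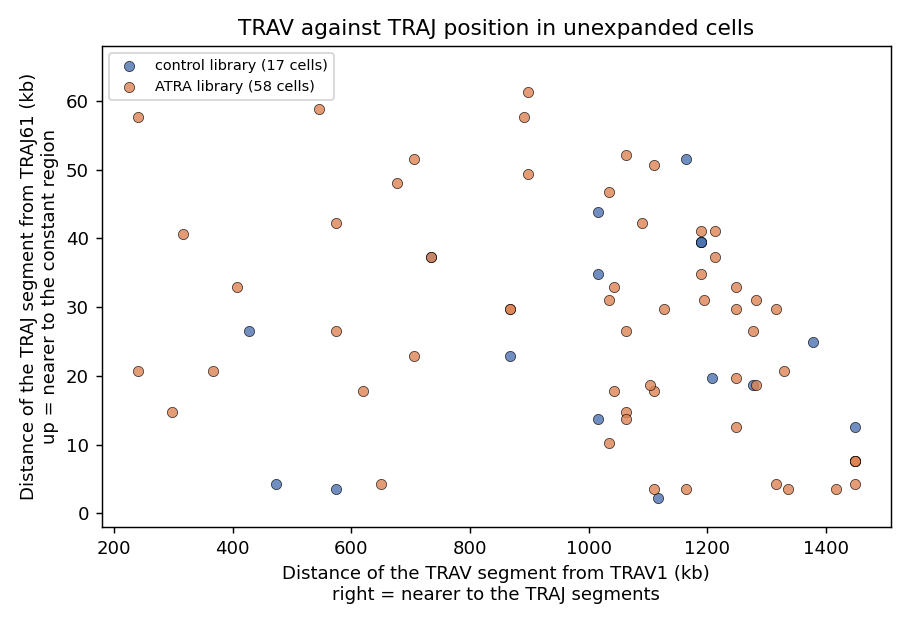
Distance of the TRAV segment downstream of TRAV1 (horizontal, kb) against distance of the TRAJ segment downstream of TRAJ61 (vertical, kb), 1 point per unexpanded cell, blue for control and orange for ATRA. Points crowd at the right, near the TRAJ segments, and the ATRA points at the far right are low on the vertical axis.

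Set beside expanded cells, the members had mean CDR3 lengths within the spread of the expanded receptors. The 20 distinct expanded clonotypes with 1 TRA and 1 TRB, counted once each, averaged 14.4 ± 1.39 alpha and 14.3 ± 1.48 beta residues, against 14.1 ± 1.31 and 13.8 ± 1.18 in the members. Their mean charges were 1.05 and -0.80, so the sign of each chain was the same in both sets. The 14 clonotypes of 2 cells just outside the rule are part of these 20, and averaged 14.4 alpha and 14.1 beta residues. Some members also shared a chain with a cell of a larger clonotype, so the sets are not independent. No value differed by more than the spread between receptors, and no test was made, since clonotype size chose the sets.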

How the data were processed

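T-cell receptor sequences were measured in 1 control and 1 ATRA library. Cell Ranger 3.1.0, bcl2fastq 2.20.0 and the GRCm38 build are named in the submitters' processing notes. Per the file headers, the authors deposited counts of UMIs and reads per assembled contig, with segment names, CDR3 and clonotype number, and without normalization. Productive TRA and TRB contigs were kept. Members and lists were chosen with earlier results of these data known. Shares carry exact 95% intervals, and a count of 0 was limited at 3 counts. Segment positions came from RefSeq (GRCm38.p6), which matched 104 of 105 segments by symbol; TRBV12-2+TRBV13-2 had none. Because no genome was used here, germline bases at the joints were replaced by stretches shared between receptors. The search and the intervals were tried on simulated data. The simulated sequences held no D segment and no differing segments within a V family, so the trial did not cover these. The text names the 3 most used families and segments per library with ties, pairs in at least 3 members, receptors sharing a CDR3, and extremes; others were chosen after their values were seen. Scripts used Python 3.11.15, numpy 2.4.6, pandas 2.3.3, scipy 1.17.1 and matplotlib 3.10.9. Alternatives were UMI minimums, members with recurring chains or further contigs left out, other charge and hydrophobicity scales, and each library alone.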

Additional observations from a re-analysis of the deposited data

Results flagged for a closer look

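Contigs that were not marked productive were left out of the values above. The barcodes of the members held 15 such contigs in the control library, in 10 of 17 cells. Those of the ATRA library held 56, in 41 of 58 cells. Both numbers are above the limit of 3 that a count of 0 allows, which is no test of them. Of the 71 contigs 52 were TRB and 16 TRA, and 38 had no V segment.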

How the results depend on the processing

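Of 147 alternative values for 22 results, 121 stayed within 1.5 times a count or within the 95% interval of the main value. For the median TRB UMIs the quartiles over cells were used in place of that interval. The ranges are wide: they took in r -0.06 for TRAV and TRAJ position in ATRA members without further contigs. The number of members fell from 75 to 36 with 3 UMIs required on each chain and to 24 without further contigs. The control number was 8 with 2 UMIs, 3 with 3 UMIs and 7 without further contigs, and the ATRA number 33 with 3 UMIs and 17 without further contigs. Without further contigs the beta charge was -1, the share of negative beta CDR3s 79.2%, and the relation of TRAV and TRAJ position r 0.0032. That relation was 0.24 in the control library alone, and over TRAV segments with no near copy -0.78 in both libraries (10 cells) and -0.83 in the ATRA library (8 cells). In the control library alone the alpha length was 13.8, the TRAV6 share 0%, the TRBJ2-1 share 11.8% and the share of negative beta CDR3s 82.4%. Over the whole CDR3 mean hydrophobicity was 0.28 in alpha and -0.14 in beta chains, and on the Eisenberg scale -0.26 and -0.17. With 2 receptors needed to share a stretch, middle bases averaged 5.17 and 9.04. Distinct TRAV-TRBV pairs per 100 members were 96 and became 100 without recurring chains, without further contigs or in the control library. The causes were not tested. Each library alone, with or without another choice, and the second receptor were chosen after seeing the data. Bases outside germline segments, and their alternatives, were not run because no genome was used here. No paired analysis was possible because each treatment had 1 library. Control shares rest on 17 cells, and single-UMI chains limit every sequence they carry.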
